A study of Mus musculus with 12 samples.

Results

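Transfer RNA (tRNA) genes occupied by MOF in wild-type blood progenitors were identified from peak lists of chromatin immunoprecipitation with sequencing (ChIP-seq). A tRNA gene of the RefSeq annotation was a member if a MOF summit of the wild-type haematopoietic stem cell (HSC) list or of the wild-type megakaryocyte-erythroid progenitor (MEP) list lay within 500 bp of it. The members were thus chosen by the wild-type summits themselves, and their counts and values in these 2 lists are a description without a test. Of 430 tRNA genes, 61 were members. Of these 58 were nuclear and 3 were mitochondrial. A further 5 tRNA genes of the annotation had coordinates of unplaced scaffolds and could not be set against the lists, which left 403 nuclear and 22 mitochondrial genes.

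The cells were sorted from bone marrow of C57BL/6 mice. HSC (15000 cells) were negative for lineage markers, CD34 and Flt3 and positive for Sca-1 and Kit. MEP (30000 cells) were positive for Kit and negative for lineage markers, Sca-1, CD34, IL7r and CD16/32. MOF was mapped in both populations from wild-type and from Mof-/+ animals, in which 1 copy of the gene for MOF is disrupted, and the transcription factor GATA1 was mapped in wild-type HPC7, a haematopoietic progenitor cell line grown with 10 ng/mL stem cell factor. The sources used here do not say how the Mof allele was made, how old the animals were or how many gave cells to a library. Each of the 5 lists came from 1 library, so no difference between lists has a replicate check. Peak lists do not measure expression, and the labelled cell types could not be checked against markers. The depth of the libraries is unknown, and the lists held 1876 peaks in wild-type HSC, 898 in wild-type MEP, 338 in Mof-/+ HSC, 64 in Mof-/+ MEP and 477 for GATA1.

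MOF (encoded by Kat8) acetylates histone H4 on lysine 16. tRNA genes are short genes transcribed by RNA polymerase III from promoter elements inside the transcribed part, the A box and the B box, which are bound by the factor TFIIIC. TFIIIC then places TFIIIB upstream of the gene, and TFIIIB recruits the polymerase. The genome holds many copies of each tRNA gene, often in clusters, and the copies differ in how much they are transcribed. RefSeq symbols give the amino acid by its letter and then the anticodon, so that n-TLaag4 is a leucine tRNA gene with the anticodon AAG.

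Most tRNA genes lay far from coding genes, and 49 of the 403 nuclear ones had a protein-coding gene end within 1 kb. None of the 61 members (0) had a window of its own in the RefSeq promoter table (GRCm38.p6), while windows of 5 neighbouring genes held bases of a member together with a MOF summit. These 5 are shown because they place the summit, the tRNA gene and the neighbour's start in 1 sequence. Each runs 5′ to 3′ on the neighbour's strand over 300 bases, with 250 of them before the neighbour's start. Capitals mark the bases of the tRNA gene.
Polr3e promoter with n-TLaag4, chr7:120917528-120917827, plus strand: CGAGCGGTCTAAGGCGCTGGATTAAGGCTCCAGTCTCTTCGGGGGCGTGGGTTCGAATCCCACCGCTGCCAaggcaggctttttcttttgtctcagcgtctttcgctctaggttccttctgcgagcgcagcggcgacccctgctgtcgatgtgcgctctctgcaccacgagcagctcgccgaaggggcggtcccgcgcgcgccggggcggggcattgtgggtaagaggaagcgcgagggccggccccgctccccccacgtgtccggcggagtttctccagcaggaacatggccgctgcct
Polg promoter with n-TRtcg5, chr7:79466224-79466523, minus strand: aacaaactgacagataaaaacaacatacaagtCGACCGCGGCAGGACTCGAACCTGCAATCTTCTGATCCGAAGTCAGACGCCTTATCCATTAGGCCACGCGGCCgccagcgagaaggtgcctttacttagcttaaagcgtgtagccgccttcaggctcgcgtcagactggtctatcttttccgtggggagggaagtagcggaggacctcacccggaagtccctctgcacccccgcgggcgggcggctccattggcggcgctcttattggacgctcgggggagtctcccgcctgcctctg
Ndufs7 promoter with n-TNgtt7, chr10:80249199-80249498, plus strand: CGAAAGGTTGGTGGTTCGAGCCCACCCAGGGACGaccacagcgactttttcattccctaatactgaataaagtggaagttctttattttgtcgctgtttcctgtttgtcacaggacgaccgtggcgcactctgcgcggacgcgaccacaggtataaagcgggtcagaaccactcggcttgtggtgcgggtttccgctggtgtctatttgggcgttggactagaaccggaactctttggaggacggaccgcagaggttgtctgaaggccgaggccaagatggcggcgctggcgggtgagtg
Prmt5 promoter with n-TRacg6, chr14:54517421-54517720, minus strand: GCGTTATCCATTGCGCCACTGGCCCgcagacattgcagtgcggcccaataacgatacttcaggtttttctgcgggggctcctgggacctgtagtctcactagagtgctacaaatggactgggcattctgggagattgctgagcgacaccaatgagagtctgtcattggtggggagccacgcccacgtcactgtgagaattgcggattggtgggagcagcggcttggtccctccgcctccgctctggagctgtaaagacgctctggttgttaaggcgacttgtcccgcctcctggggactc
Gm46404 promoter with n-TVcac9, chr13:23445922-23446221, minus strand: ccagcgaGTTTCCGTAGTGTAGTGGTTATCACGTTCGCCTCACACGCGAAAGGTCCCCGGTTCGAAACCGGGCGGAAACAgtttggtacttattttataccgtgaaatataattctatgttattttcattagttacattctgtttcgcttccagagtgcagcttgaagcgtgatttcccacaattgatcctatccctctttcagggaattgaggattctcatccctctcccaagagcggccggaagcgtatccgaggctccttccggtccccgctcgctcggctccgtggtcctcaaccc

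Polr3e, which encodes a subunit of RNA polymerase III itself, had the highest HSC summit of all nuclear members at its promoter. The window held 71 of the 82 bases of n-TLaag4 (chromosome 7, 120917517 to 120917598), at positions 1 to 71 counted from the window's 5′ end. The HSC summit (−log10 value 11.3) was at position 115 and the MEP summit (5.76) at position 131, between the tRNA gene and the start of Polr3e. In the Polg window, the gene of the mitochondrial DNA polymerase, all 73 bases of n-TRtcg5 lay at positions 33 to 105, and the MEP summit (9.70) was at position 135. This is the highest MEP summit among the nuclear members, and the HSC list had none within 500 bp. In the window of Ndufs7, which encodes a subunit of respiratory complex I, 34 bases of n-TNgtt7 stood first, followed by the MEP summit at position 46 (3.80) and the HSC summit at position 115 (4.86). The window of Prmt5, the gene of an arginine methyltransferase, began with 25 bases of n-TRacg6 and had an HSC summit at position 129 (8.69). In the window of the long non-coding gene Gm46404 the HSC summit (2.54) lay at position 74, inside n-TVcac9 at positions 8 to 80.

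The B box motif GTTCGANNC, searched on both strands, was found in 277 of 32851 RefSeq promoter windows (0.843%). Of the 5 windows shown, the Polr3e, Ndufs7 and Gm46404 windows held it on the printed strand, from positions 51, 14 and 60. The Polg window held it on the other strand, from position 45. These 4 matches lay within the capitals. The 5 windows were chosen because they hold bases of a tRNA gene, and the B box is part of such a gene. The matches therefore describe the tRNA sequences, and setting them beside the share of all windows says nothing about MOF. The looser motif GTTCNANNC, which includes every match of the first, was in 3063 windows (9.32%), among them the Ndufs7 window with a further match on the other strand, from position 217. The Prmt5 window, which holds 25 of the 73 bases of n-TRacg6, had neither.

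Next, the share of tRNA genes with a summit was compared with that of other genes. In wild-type HSC 35 of 403 nuclear tRNA genes had a summit within 500 bp (8.68%, 95% Wilson interval 6.31 to 11.8), against 4.07% of all 49595 nuclear RefSeq genes on assembled chromosomes. In wild-type MEP 34 had one (8.44%, 6.10 to 11.6), against 1.80% of all genes. These intervals cover counting error only, and neighbouring genes that share a summit are not independent. Other classes of short genes had lower shares. Small nuclear RNA genes had 2.41% in HSC and 2.71% in MEP, small nucleolar RNA genes 0.526% and 0.376%, and microRNA genes 0.896% and 0.326%. Protein-coding genes, which are much longer targets, had 7.55% in HSC and 3.12% in MEP. The shares of tRNA and small nuclear RNA genes were thus close in both lists, while those of all genes and of protein-coding genes were lower in MEP, where the list is shorter. With the HSC list held to its 898 highest peaks, a comparison added after the data were seen, 15 nuclear tRNA genes had a summit (3.72%), against 2.02% of all genes and 3.70% of protein-coding genes. At equal list length the tRNA count was therefore 15 in HSC and 34 in MEP. The cut kept HSC peaks from 5.38 upward, while the MEP list was kept whole, down to 1.35. With a value of at least 5 in both lists, the counts over all tRNA genes were 15 and 21. At or above the median of each list they were 15 and 17. Both of these MEP counts include the 3 mitochondrial genes. None of the differences can be tested with 1 library each.

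**Figure D1:**
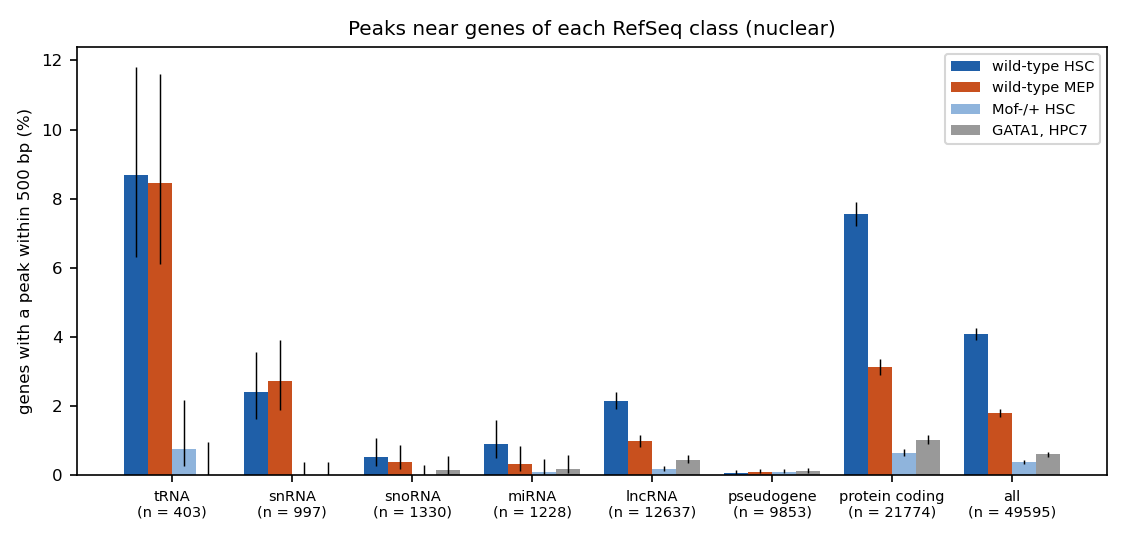
Share of nuclear genes of each RefSeq class (number of genes in brackets) with a peak within 500 bp, in percent, in 4 of the 5 lists. Error bars are 95% Wilson intervals, and tRNA genes had 8.68% in HSC and 8.44% in MEP, while the GATA1 list had none.

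The nuclear members fell into 24 genes with a summit in the HSC list alone, 23 in the MEP list alone and 11 in both. The 11 shared genes were 31.4% of the 35 HSC genes and 32.4% of the 34 MEP genes. Over all nuclear genes, 358 had a summit in both lists, which was 17.7% of those with one in HSC and 40.1% of those with one in MEP. The number of shared tRNA genes rests on the window and on low values, as it was 2 with a window of 100 bp and 1 among peaks with a value of at least 5. In number of summits, 26 of the 1876 HSC peaks (1.39%, 0.948 to 2.02) and 24 of the 898 MEP peaks (2.67%, 1.80 to 3.95) lay near a nuclear tRNA gene. Their −log10 values, which are the authors' and are ranked only within a list, were moderate. In HSC the 26 values ran from 2.01 to 11.3 with a median of 4.36, against 5.29 for the other peaks, and 10 were above the median of the list. In MEP the 24 values ran from 3.16 to 9.70 with a median of 5.03, against 5.62, and 11 were above the median. The best tRNA summit ranked 139 of 1876 in HSC and 187 of 898 in MEP.

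**Figure D2:**
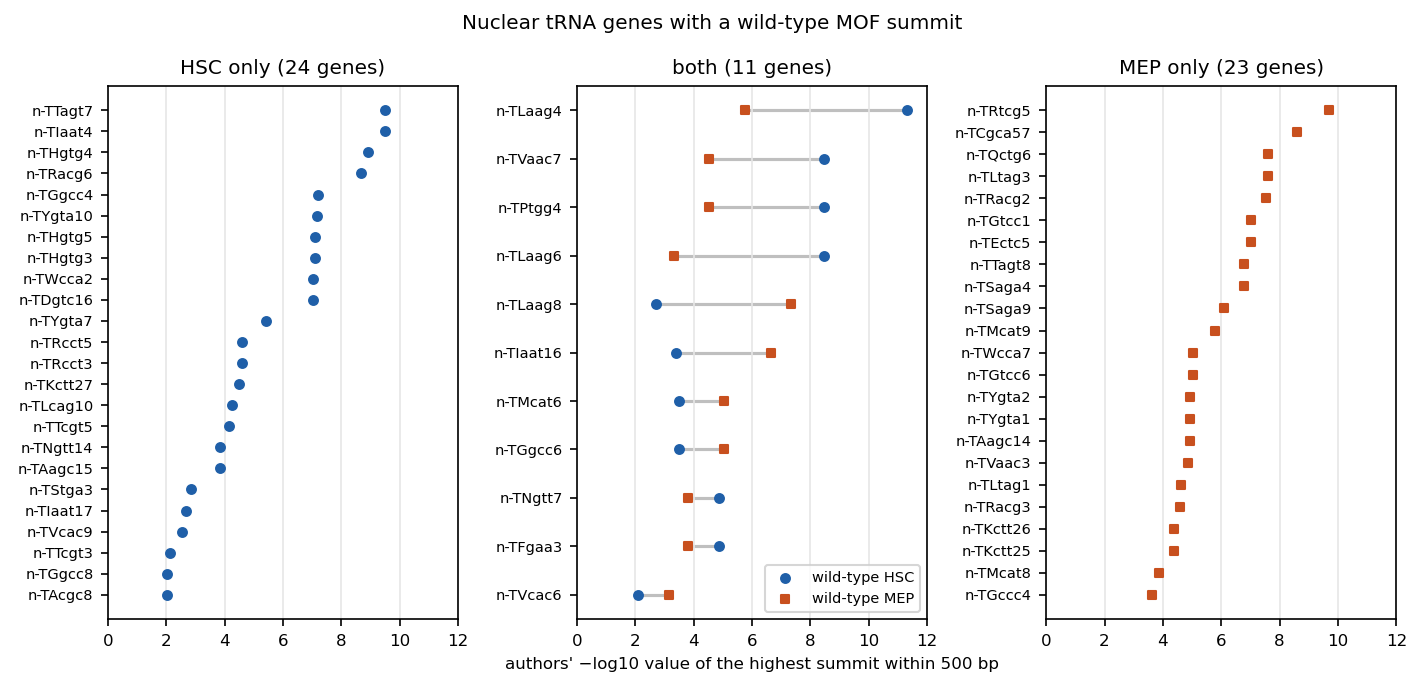
Authors' −log10 value (x axis) of the highest summit within 500 bp of each nuclear member gene (y axis), for 24 genes in HSC alone, 11 in both and 23 in MEP alone. Circles are wild-type HSC and squares wild-type MEP, and a grey line joins the values of a shared gene. Neighbouring genes with equal values share 1 summit.

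Among the 11 shared genes, 3 were for leucine with the anticodon AAG. The annotation has 5 nuclear n-TLaag genes, and 3 of them had a summit in both lists. n-TLaag4, at Polr3e, had 11.3 in HSC and 5.76 in MEP. n-TLaag6 (chromosome 11, 48856974 to 48857055) had 8.48 in HSC, from a summit 425 bp away, and 3.31 in MEP, from a summit inside the gene. n-TLaag8 (chromosome 14, 51063883 to 51063964) had 2.71 in HSC and 7.32 in MEP. Beside n-TLaag6 lie n-TPtgg4, a proline gene, and n-TVaac7, a valine gene, which shared its HSC summit (8.48) and had 4.53 as their highest MEP value. These 3 genes were the members of a cluster of 8 tRNA genes on chromosome 11.

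The other shared genes were n-TFgaa3 (phenylalanine) and n-TNgtt7 (asparagine) at Ndufs7, both with 4.86 in HSC and 3.80 in MEP, n-TIaat16 (isoleucine), n-TGgcc6 (glycine), n-TMcat6 (methionine) and n-TVcac6 (valine). n-TIaat16, which lies 318 bp from an end of the exchange factor gene Plekhg2, had 3.40 in HSC and 6.65 in MEP. n-TGgcc6 and n-TMcat6 on chromosome 13 had the same summit between them in each list, at 3.49 in HSC and 5.02 in MEP. n-TVcac6 on chromosome 1 had 2.08 in HSC and 3.16 in MEP. The summits of the 2 lists at a shared gene formed 8 pairs that were 10 to 478 bp apart, with a median of 91.0 bp. The closest pair (10 bp) was the one between n-TGgcc6 and n-TMcat6, followed by the Polr3e pair (16 bp). Extended by 150 bp on each side, 6 of the 8 pairs overlapped. The exceptions were the pairs of n-TLaag6 and n-TLaag8, 478 and 391 bp apart.

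Of the genes in the HSC list alone, n-TIaat4 and n-TTagt7, for isoleucine and threonine on chromosome 11, shared the highest summit (9.49), 27 bp from n-TIaat4 and 324 bp from n-TTagt7. They were followed by n-THgtg4 (8.90), n-TRacg6 at Prmt5 (8.69), n-TGgcc4 (7.21) and n-TYgta10 (7.16). n-THgtg4 belongs to a group of 3 histidine genes on chromosome 2, from 122375494 to 122378039, that forms a cluster of its own. All 3 were members in HSC, as n-THgtg3 and n-THgtg5 had a common summit (7.08). No MEP summit lay within 500 bp of the 3 genes.

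Of the genes in the MEP list alone, n-TRtcg5 at Polg came first (9.70), then n-TCgca57 (8.58) on chromosome 6, then n-TLtag3 and n-TQctg6 (7.60, a leucine and a glutamine gene on chromosome 11) with 1 summit between them. n-TRacg2 (7.52) lies 256 bp from an end of Sacm1l, the gene of a phosphoinositide phosphatase. n-TEctc5 and n-TGtcc1 (7.03) lie within the annotated span of Fcgr3, an Fc receptor gene of myeloid cells, with the summit between them. n-TSaga4 and n-TTagt8 (6.78) again had 1 summit between them. A cluster of 4 genes on chromosome 3, from 19627959 to 19629067, had a MEP summit at every gene. Its genes n-TRacg3, n-TYgta1, n-TYgta2 and n-TAagc14 had 2 summits (4.59 and 4.94), and none of the 4 had an HSC summit within 500 bp.

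Of the HSC summits 3 of 26 were inside a tRNA gene, and of the MEP summits 4 of 24. A tRNA gene is short beside the window of 500 bp on each side, so counts inside and outside cannot be compared directly. A preference for either place was not tested. The median distance from a summit to the nearest tRNA gene was 87.5 bp in HSC and 75.5 bp in MEP, and 16 HSC and 15 MEP summits lay within 100 bp. The coordinate sides were even, with 12 HSC summits on the lower and 11 on the higher side, and 11 and 9 in MEP. The annotation table gives no strand for tRNA genes, so sides are given by coordinate and not as upstream or downstream. A summit stood between a pair of tRNA genes, each within 500 bp, in 5 cases in HSC and 8 in MEP. More than 1 gene was within reach of 8 HSC and 11 MEP summits.

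**Figure D3:**
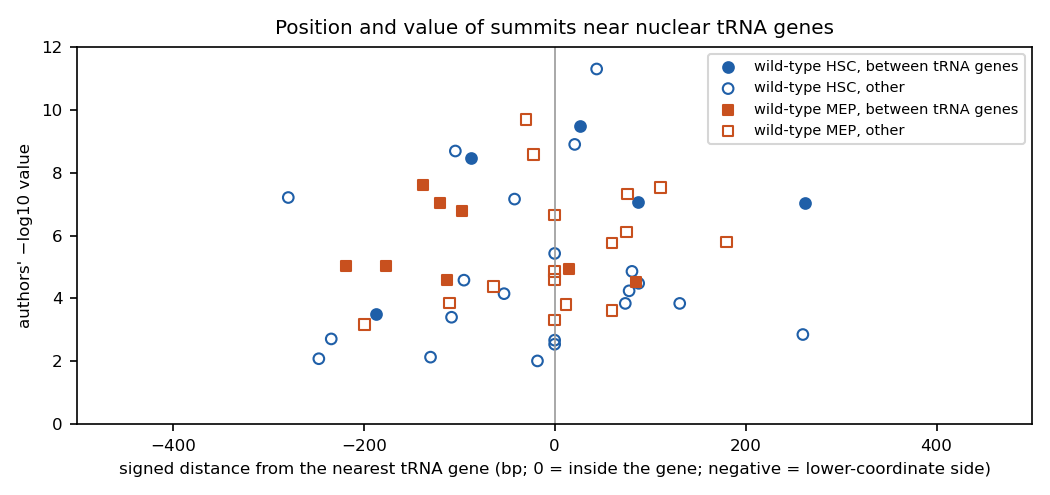
Authors' −log10 value (y axis) of each wild-type summit near a nuclear tRNA gene against its signed distance in bp from the nearest tRNA gene (x axis, 0 inside the gene, negative on the lower-coordinate side). Filled symbols are the 5 HSC and 8 MEP summits between tRNA genes, and the points lie on both sides of 0.

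By the nearest summit of either list, the 58 members had a median distance of 100.5 bp. In 7 of them it was 0, in 29 it was at most 100 bp and in 47 at most 250 bp. The members just inside the limit of 500 bp were n-THgtg5 (447 bp), n-TKctt25 (429 bp) and n-TRcct3 (418 bp), each beside a nearer neighbour on the same summit. Just outside were n-TYgta9 (547 bp), n-TDgtc9 (552 bp) and n-TEttc4 (556 bp). Beyond the limit, 11 nuclear genes had their nearest HSC summit at 501 to 1000 bp and 9 at 1001 to 2000 bp. The MEP list gave 8 and 4.

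Every one of the 20 amino acids had at least 1 nuclear member. The largest numbers were 6 each for glycine (of 28 genes), leucine (of 25) and arginine (of 24), then 4 each for threonine (of 17), valine (of 22) and tyrosine (of 10). Tyrosine had the highest share, at 40.0%, against 14.4% (58 of 403) over all nuclear tRNA genes. Among its members, n-TYgta1 and n-TYgta2 shared a MEP summit. Cysteine, with 57 genes the most numerous family, had the lowest, as n-TCgca57 was the single member (1.75%). The cysteine genes lie in only 6 genomic clusters (gaps under 50 kb), so family and cluster cannot be told apart here. Histidine members (3 of 11) were all in HSC alone, and leucine had 3 of its 6 in both lists. Differences between families were not tested.

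By anticodon, 30 of the 48 nuclear families had a member and 18 had none. In HSC 22 families had one, in MEP 23 and in both lists 15. Among families with at least 5 genes the highest share was that of n-TLaag (3 of 5), followed by n-TRacg (3 of 6) and by n-TYgta (4 of 10) and n-TRcct (2 of 5). Over all nuclear tRNA genes the share was 14.4%. Of the families without a member, the largest were n-TAtgc (11 genes), n-TEttc and n-TSgct (8 genes each).

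**Figure D4:**
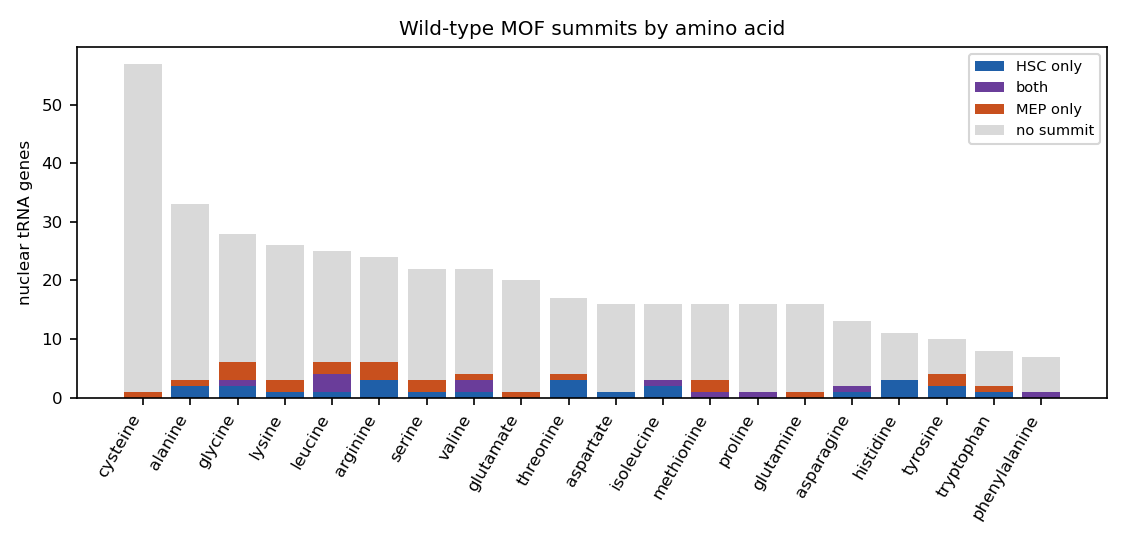
Number of nuclear tRNA genes by amino acid (y axis), divided into genes with a summit in HSC alone, in both lists, in MEP alone and without one. Cysteine had 1 member of 57 genes, and tyrosine 4 of 10.

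tRNA genes were grouped into clusters wherever the gap between neighbours was under 50 kb. This gave 130 clusters, of which 97 were single genes, and 28 of the 130 had a member. HSC summits occurred in 19 clusters, MEP summits in 17 and both in 8. Small clusters of 2 to 5 genes had the highest share of members, with 18 of 51 genes (35.3%, 23.6 to 49.0). Single genes had 14 of 97 (14.4%, 8.80 to 22.8), clusters of 6 to 19 genes 14 of 65 (21.5%, 13.3 to 33.0) and clusters of 20 or more 12 of 190 (6.32%, 3.65 to 10.7). Neighbours in a cluster can share a summit and single genes cannot, so these shares and intervals are not like for like. How reads that fit several near-identical gene copies were treated is not given in the sources used here, and its part in the low share of large clusters was not tested.

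The cluster with the most members lies on chromosome 11 from 69037003 to 69125248 and held 9 members among 18 genes. The MEP list had 3 summits there, near n-TSaga4 and n-TTagt8, near n-TGtcc6 and n-TWcca7 (5.04), and near n-TLtag3 and n-TQctg6. The HSC list had 2, near n-TIaat4 and n-TTagt7 and near n-TKctt27 (4.48). No gene of this cluster was shared. The nearest pair of summits from the 2 lists was 867 bp apart, the MEP summit beside n-TQctg6 and the HSC summit beside n-TKctt27, with Hes7 and Aloxe3 as the nearest coding genes.

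A cluster of 36 genes on chromosome 13, from 23397060 to 23530419, had 6 members. HSC summits lay inside n-TYgta7 (5.43) and n-TVcac9 (2.54) and near n-TLcag10 (4.24), the summit between n-TGgcc6 and n-TMcat6 was common to both lists, and a MEP summit lay near n-TMcat9 (5.79), which is 625 bp from the histone gene H4c8. A histone gene lay within 5 kb of 1 of the 58 nuclear members (1.72%) and of 3 of the 345 others (0.870%). The third of the large groups, on chromosome 1 from 171033942 to 171111515, had 4 members among 25 genes, namely n-TGgcc4, n-TEctc5, n-TGtcc1 and n-TVcac6. In contrast, 3 large clusters had no member in either list. They were the 48 genes on chromosome 6 from 48133937 to 48363603, the 25 on chromosome 3 from 96322074 to 96501518 and the 24 on chromosome 13 from 21160785 to 21326789.

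**Figure D5:**
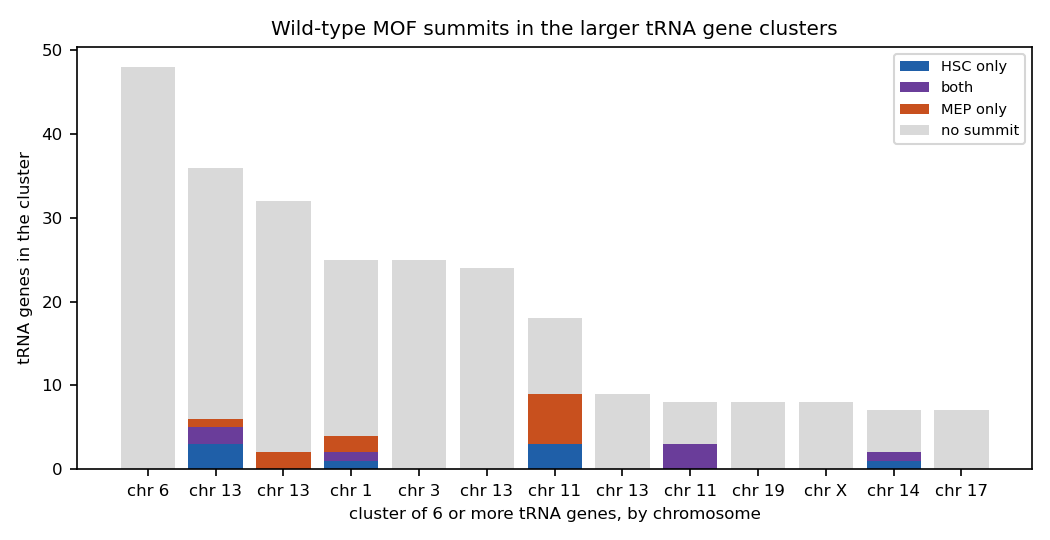
Number of tRNA genes (y axis) in each of the 13 clusters of 6 or more genes, named by chromosome (x axis), divided by where a summit was found. The cluster on chromosome 11 with 18 genes had 9 members, and the cluster on chromosome 6 with 48 genes had none.

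A protein-coding gene end lay within 1 kb of 19 of the 58 members (32.8%, 22.1 to 45.6) and of 30 of the 345 nuclear tRNA genes without a summit (8.70%, 6.16 to 12.1). The median distance to a gene end was 3525 bp for members and 13491 bp for the others. At these genes a summit that belongs to the tRNA gene and one that belongs to its neighbour cannot be told apart. Read the other way, 19 of 49 tRNA genes near a gene end were members (38.8%, 26.4 to 52.8), against 39 of the other 354 (11.0%, 8.16 to 14.7). Away from gene ends, the HSC share was 6.21% and the MEP share 6.78%. The shares of all nuclear genes, 4.07% and 1.80%, were taken without regard to gene ends, so they are not a like comparison. The tRNA genes away from coding gene ends also include n-TRtcg5 (1420 bp from an end) and n-TVcac9. Their summits lie in the Polg and Gm46404 promoter windows. The members near gene ends were 9 of 24 in HSC alone, 6 of 23 in MEP alone and 4 of 11 in both. Besides those in the sequences above, summits of 4 members lay in promoter windows of the coding genes Plekhg2 (n-TIaat16), Tia1, which encodes an RNA-binding protein (n-TGccc4, MEP 3.61), Sacm1l (n-TRacg2) and Agbl5 (n-TAagc15, HSC 3.84). Annotated spans of protein-coding genes held 6 of the 58 members (10.3%) and 28 of the 345 others (8.12%).

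The lists that were not used to choose the members had no peak at the nuclear ones. Mof-/+ HSC intervals lay within 500 bp of 0 of 58 members, a count that allows a share of up to 5.17% by the limit of 3 counts, or 6.21% by the Wilson interval, and of 3 of 345 other nuclear tRNA genes (0.870%, 0.296 to 2.53). Over all nuclear genes the share was 0.369%. The 3 genes, n-TMcat13, n-TKctt11 and n-TPagg3 on chromosome 13, belonged to 2 intervals, each with a −log10 q of 6.53 and 6.79-fold enrichment. One of them, from 23436797 to 23437094, lies in the cluster of 36 genes, 3.72 kb from the member n-TYgta7. This was the smallest distance from a nuclear member to a Mof-/+ HSC interval, and the median was 7279 kb. In Mof-/+ MEP and in the GATA1 list 0 of 58 members and 0 of 345 others had an interval, against 0.0706% and 0.597% of all nuclear genes. The nearest interval of either list was 67.3 kb from a member, n-TRacg2. With 338 and 64 intervals, the Mof-/+ lists are far shorter than the wild-type lists. The share of all nuclear genes was under 1% in each of these 3 lists, so a count of 0 among 58 genes is near the background.

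The 3 mitochondrial members are of another kind. The single mitochondrial summit of the MEP list (−log10 value 65.6, rank 15 of 898) lay at position 11526, 20 bp from TrnH, and reached TrnS2 and TrnL2 within 500 bp (genes of histidine, serine and leucine tRNA). In wild-type HSC no mitochondrial peak was listed. In Mof-/+ HSC 10 intervals covered 11597 bp of the mitochondrial genome, with enrichments of 1.72- to 2.75-fold, and came within 500 bp of all 22 mitochondrial tRNA genes. These 3 genes were thus the only members with a peak in a further list. The number of mitochondrial genomes per cell was not measured.

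Last, genes of the polymerase III system were examined in the same way, with summits within 500 bp of the annotated gene. Of 35 genes for polymerase III subunits and factors, 8 had a summit in HSC (22.9%, against 7.55% of protein-coding genes) and 2 in MEP (5.71%, against 3.12%), and Polr3e was in both. The Polr3e summits are those that made n-TLaag4 a member, so they are not a separate observation. These shares were not tested. In HSC the other subunit genes were Polr3f (9.77), Polr3c (7.22), Polr3g (5.88), Polr3gl (2.83) and Polr1d (1.89), with the TFIIIC gene Gtf3c1 (3.09) and the TFIIIB gene Brf1 (2.85). In MEP the TFIIIB gene Bdp1 (2.86) was the second. The summits at Polr3c, Polr3e, Polr3f, Polr3g and Gtf3c1 lay 120 to 181 bp from an annotated gene end, and that in Brf1 and that in Bdp1 lay deep within the gene.

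Of 32 genes listed under tRNA processing, modification and export, 5 had a summit in HSC (15.6%, against 7.55% of protein-coding genes) and 1 in MEP (3.12%, equal to the share of protein-coding genes). They were the La-related gene Larp7 (9.07), the tRNA methyltransferase gene Trmt1 (6.70), the RNase P subunit genes Rpp14 (5.48) and Pop7 (4.03) and the RNA kinase gene Clp1 (1.89) in HSC, and Ssb (4.59), which encodes the La protein that binds new polymerase III transcripts, in MEP. Larp7 stands in this list as a La-related gene, and a role of it in tRNA processing was not examined. Other polymerase III transcripts were represented by 79 genes, of which 69 are 5S ribosomal RNA genes, and 3 had a summit in each list. Rpph1, the RNA of RNase P (11.4), and Rmrp, the RNA of RNase MRP (6.50), had one in HSC, Rn7sk (10.5) and the signal recognition particle RNA gene Rn7s2 (7.71) in MEP, and Rn7s1 in both (1.89 and 1.77). Each count is 3.80% of the 79 genes, against 4.07% of all nuclear genes in HSC and 1.80% in MEP. The 5S genes make up most of the 79 and lower this share, as all genes with a summit were among the others. Rn7s1 also had a Mof-/+ HSC interval within 500 bp. Of the 69 5S genes 0 had a wild-type summit, 4 were near Mof-/+ HSC intervals and 3 near GATA1 intervals. Over all nuclear genes the shares with such an interval were 0.369% and 0.597%. These 7 5S genes lie in 1 array on chromosome 8, from 123543871 to 123622046, among near-identical copies, so that they are not independent.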

How the data were processed

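ChIP-seq peak lists of 5 of the 12 samples were used. The other 7 samples, 6 inputs and an H4K16ac library, were not analysed here. The submitters' processing notes name Bowtie2 2.3.0.1, MACS2 and deepTools, with the build mm10. The sources used here give no settings, no filter on duplicate or multi-mapping reads and no read numbers. The deposited wild-type lists give summits of 1 bp with a −log10 value each, read as −log10 q because its minimum lies just above that of 0.05. The deposited Mof-/+ lists give intervals with a −log10 q-value and a fold enrichment, and the deposited GATA1 list gives intervals alone.

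Distances were computed in Python 3.11.15 (pandas 2.3.3) from the summit or the nearest interval base to the gene (0 on overlap), and tested on simulated summits. Genes were those of RefSeq GRCm38.p6 (the build of mm10, without strand) on assembled chromosomes. Wilson intervals (95%) came from scipy 1.17.1. No test was made, because the rule used the wild-type lists and each group has 1 library. Members and lists were chosen with earlier results of these data known. Named genes were the shared members, the 10 highest per list, those near the 500 bp limit, members of the 3 fullest clusters and the polymerase III genes with a summit; further members were named after their values were seen.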

Additional observations from a re-analysis of the deposited data

How the results depend on the processing

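The number of tRNA genes with a wild-type summit followed the window and the threshold. Over all 430 genes the main counts were 35 in HSC, 37 in MEP, 11 in both and 61 in either list. A window of 100 bp gave 16, 17, 2 and 31, and 2000 bp gave 55 in HSC and 21 in both. Peaks with a value of at least 5 gave 15, 21, 1 and 35, and peaks at or above the median of their list 15, 17, 1 and 31. Without summits within 1 kb of a protein-coding gene end the counts were 21, 24, 7 and 38. The HSC list limited to the length of the MEP list, chosen after seeing the data, gave 15. Assigning each summit to its nearest tRNA gene left 6 in both. Leaving out regions found in 4 or 5 lists changed none of the 42 named genes, and could not, because no member had peaks in 4 lists. Members with a peak in another list, 3 and all mitochondrial, became 0 at or above the median. Counting each cluster once per family gave 51 combinations of family and cluster, another unit than the 30 anticodon families. A gene end within 5 kb, in place of 1 kb, was found for 33 members and 73 others. The counts of clusters and of polymerase III genes and the median distance moved by less than 1.5 times under each alternative run.

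No paired analysis was possible because each group has 1 peak list. Depth is unknown, so a gene without a summit was not detectable as occupied, which does not show that MOF is absent.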
